A study of Danio rerio with 7 samples.

Results

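Among the melanoma cells that the deposited annotation placed in an inflammatory state, some carried the Cas9-mCherry transcript and others had none, and the values below describe the 2 sides of that split. The cells were selected on 3 criteria: the annotation (inflammatory), a raw depth of at least 2000 UMIs (unique molecular identifiers, each standing for 1 captured RNA molecule), and the Cas9-mCherry value in the count table. A value of 1 or more put 159 cells on one side, and a value of 0 put 390 cells on the other. These 549 cells were part of 580 inflammatory cells, of 2678 melanoma cells and of 3968 cells in the whole table. Because the split was chosen by Cas9-mCherry itself, its own level is a description of the choice and not a result.

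Melanomas were raised by TEAZ (transgene electroporation of adult zebrafish), in which plasmids are injected into the skin of an adult fish and driven into the cells there by electric pulses. The fish were adults of the casper strain (mitfa-/-;mpv17-/-) with the mitfa:BRAFV600E transgene and p53-/-, and every cell described here therefore shares that background, with and without Cas9-mCherry alike. The plasmids were MinicoopR-tdT, which returns a mitfa minigene and adds tdTomato, mitfa:Cas9 and guide plasmids, with Tol2 transposase. Tumors and adjacent tissue of several fish of both sexes were pooled, sorted to remove debris and doublets, and loaded into 1 droplet reaction, and the 6 bulk libraries (sgDGAT1a and sgNT, 3 each) came from tdTomato+ cells of tumors with 1 further guide. With a single pooled library no test between the 2 sides was possible, the fish of origin of a cell was not known, and cells are not replicates.

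The mitfa promoter drives expression in the melanophore lineage, since mitfa is the transcription factor that directs neural crest cells to become pigment-producing melanophores. Iridophores, the reflective pigment cells of fish, come from the same neural crest, hold stacks of purine crystals, and form when mitfa is low and factors such as tfec and alx4a act. The casper strain lacks both pigment cell types in its skin, because mitfa loss removes melanophores and mpv17 loss removes iridophores. Class I antigen presentation, which any nucleated cell can perform, displays peptides cut by the proteasome on a heavy chain held by beta-2-microglobulin, while class II presentation and its invariant chain, CD74, mark macrophages and other professional antigen-presenting cells.

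The counts were corrected for depth by the authors with SCTransform, so that each value is an estimate of the UMIs the cell would have given at a common depth; they are called corrected counts here. Part of the split followed raw depth. In the whole table no cell under 3071 raw UMIs had a Cas9-mCherry value of 0, and all 738 cells below that depth, of any annotation, carried at least 1 corrected count. Of the members, 25 lay below it, all of them with Cas9-mCherry and 22 of them at the value of 1. The cell just inside the depth limit had 2074 raw UMIs, the cell just outside had 1968, and the shallowest cell without Cas9-mCherry had 3090. At the other limit, 71 cells stood at the value of 1, 36 at 2 and 390 at 0, and the highest cell had 31. Since at the depth of those 25 cells every cell was positive, values for cells of at least 5000 raw UMIs, which were 124 with Cas9-mCherry and 330 without, are given beside those for all members.

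Cas9-mCherry was present in 28.96% of the inflammatory cells (159 of 549, exact Clopper-Pearson 95% interval 25.2 to 33.0%), and in 27.3% of those of at least 5000 raw UMIs (23.3 to 31.7%). In the 4 other melanoma states (melanocytic, stressed, proliferative and invasive) of at least 5000 raw UMIs the share was 82.3% (1397 of 1697 cells), made up of 99.0% in melanocytic, 87.9% in stressed, 78.8% in proliferative and 42.3% in invasive cells (36.0 to 48.7%). In the cells of the tumor microenvironment (TME, the non-melanoma cells of the sample, which should not use the mitfa promoter) it was 8.22% (55 of 669 cells, 6.25 to 10.6%). The source of Cas9-mCherry in TME cells, such as free RNA in the droplets, was not tested. The inflammatory share thus lay between those of the TME and the other melanoma cells, and its interval overlapped neither. Intervals in this text cover counting error only and not the spread between cells. Those for means treat corrected counts as if they were counts of molecules, which they are not.

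The share did not follow depth evenly. Among inflammatory cells Cas9-mCherry was found in 14.3% (10 of 70) between 3071 and 5000 raw UMIs, in 23.2% (51 of 220) between 5000 and 10000, in 22.8% (38 of 167) between 10000 and 20000, and in 52.2% (35 of 67, 39.7 to 64.6%) at 20000 or more, where invasive cells had 55.6% (10 of 18, 30.8 to 78.5%). TME cells in the same ranges had 7.22%, 8.504%, 5.56% and 15.8%. In both kinds of cell the deepest range held the highest share above 3071 raw UMIs. With 2 or more corrected counts as the limit, 12.3% of inflammatory and 2.35% of TME cells between 5000 and 10000 raw UMIs were positive, and 40.3% and 14.5% at 20000 or more.

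**Figure D1:**
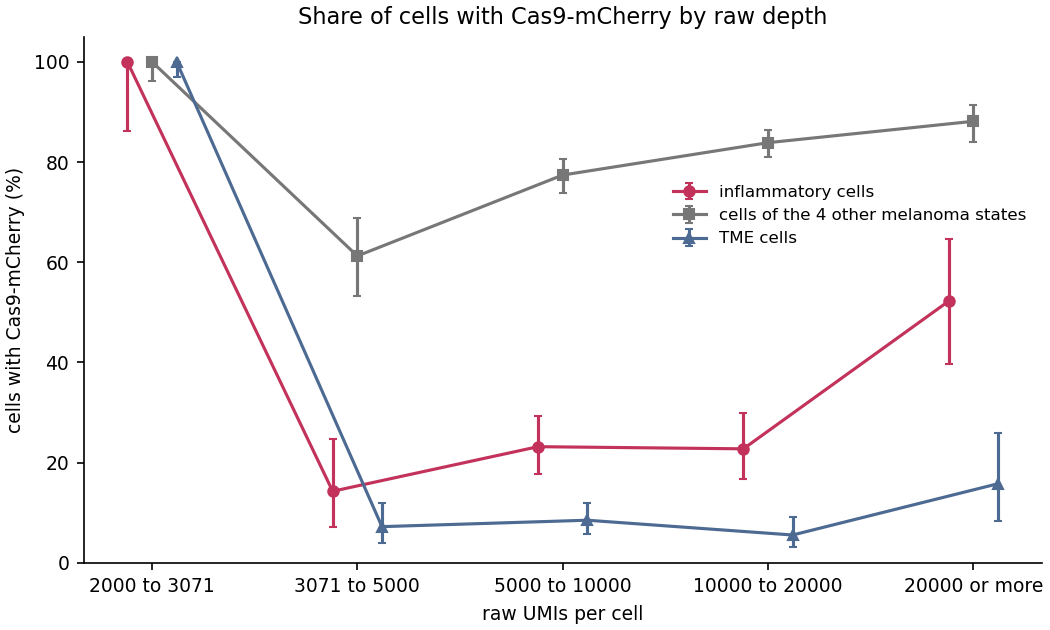
Share of cells with at least 1 corrected count of Cas9-mCherry (y axis, %) by range of raw UMIs per cell (x axis), in inflammatory cells, in the cells of the 4 other melanoma states and in TME cells; points are shares and bars are exact 95% Clopper-Pearson intervals. All cells of 2000 to 3071 raw UMIs are positive, and above that depth the inflammatory share lies between 14.3% and 52.2%.

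Raw depth overlapped widely between the sides. Cells with Cas9-mCherry had a median of 9286 raw UMIs (quartiles 5671 and 18439, range 2074 to 83009) and cells without had a median of 8590 (quartiles 5908 and 13277, range 3090 to 57081). The upper quartiles differed more than the medians. At 5000 or more raw UMIs the medians were 13474 with and 9828 without Cas9-mCherry, and detected genes per cell had medians of 2528 and 2117. Mitochondrial UMIs made up a median of 1.13% in cells with Cas9-mCherry and 0.952% in cells without, and ribosomal protein UMIs 36.1% and 33.99%. The median total of corrected counts per cell was 7662 with and 7901 without. Differences in expression described below thus came with a difference in depth, and its part in them was not tested beyond the values given for other depth ranges.

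**Figure D2:**
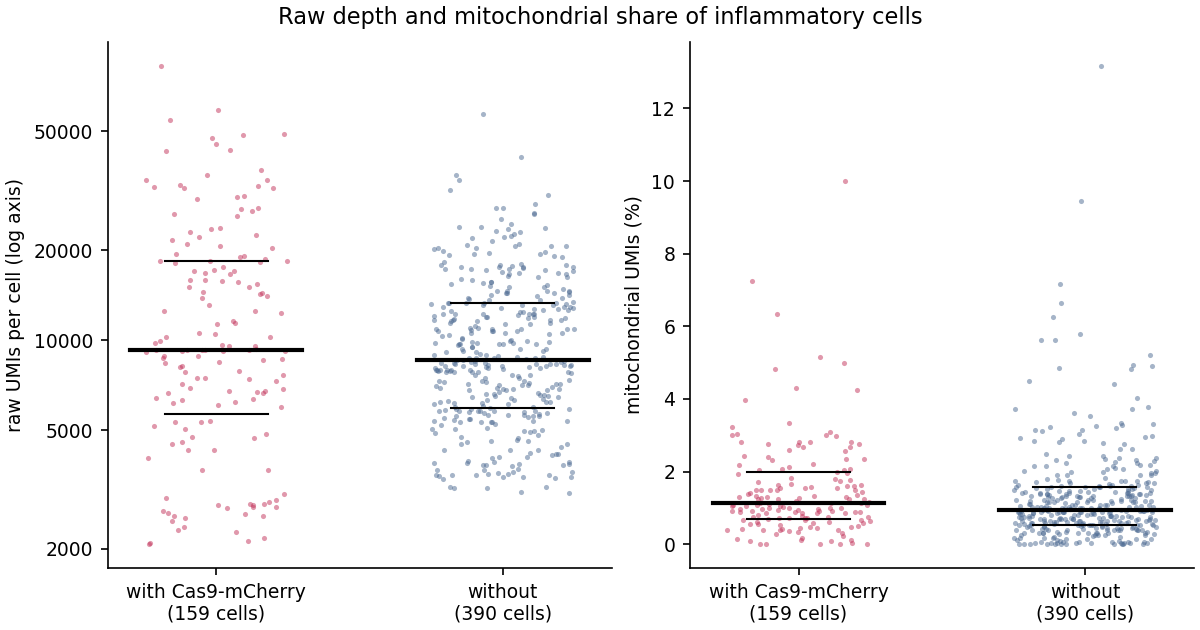
Raw UMIs per cell (left, log axis) and share of mitochondrial UMIs (right, %) in inflammatory cells with (159) and without (390) Cas9-mCherry; each point is a cell, the thick line is the median and the thin lines are the quartiles. The medians of raw UMIs are 9286 and 8590, and the lowest points on the left belong only to cells with Cas9-mCherry.

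The annotated cells had the markers of iridophores on both sides of the split, and the defining leukocyte genes were rare. apoda.1, an apolipoprotein D gene, was found in 93.1% of cells with and 94.4% of cells without Cas9-mCherry, against 9.27% of TME cells. Here and below, TME shares and means of genes other than Cas9-mCherry are for TME cells of at least 5000 raw UMIs. They stand beside members of at least 2000 unless a depth is given. The neural crest factor sox10 was found in 94.3% of cells with and 85.9% of cells without Cas9-mCherry, against 6.13% of TME cells. The leukocyte phosphatase gene ptprc (CD45) was found in 0.629% of cells with and 1.03% of cells without Cas9-mCherry, against 45.3% of TME cells. The macrophage gene mpeg1.1 had 0 cells among those with and 1 cell among those without Cas9-mCherry, and 0 of 159 cells allows a share of up to 1.89%. Other markers of these lists were more frequent, since coro1a was found in 13.8% of cells with and 25.1% without Cas9-mCherry. Any pan-leukocyte marker was found in 38 of 124 cells with and 114 of 330 without at 5000 or more raw UMIs, and any macrophage marker in 69 and 206. No gene of the lists for neutrophils, T and NK cells, endothelium, erythrocytes or skeletal muscle reached 50 corrected counts over the 549 cells.

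Most genes differed by less than 2-fold between the sides. Of 6286 genes with at least 50 corrected counts, 146 (2.32%) were at least 2-fold higher in cells with Cas9-mCherry and 202 (3.21%) at least 2-fold lower, and 45.7% had a log2 ratio above 0, with a median of -0.04. The log2 ratio throughout is that of each gene's share of all corrected counts in cells with Cas9-mCherry over its share in cells without, after adding 0.5 to each sum. At 5000 or more raw UMIs, 2.73% of 5864 genes were at least 2-fold higher and 3.34% at least 2-fold lower, with 47.8% above 0. Of the genes measured at both limits, 116 were 2-fold higher and 136 were 2-fold lower at both. Between 5000 and 20000 raw UMIs, where the log2 ratio of the median depths was 0.02, the medians were 0.76 for interferon and antigen presentation genes, 0.50 for melanophore genes and -0.09 for iridophore markers. In that range mitfa had a log2 ratio of 1.99, pmela 1.84, crestin 0.81, b2m 0.75 and mhc1uba 0.77.

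**Figure D3:**
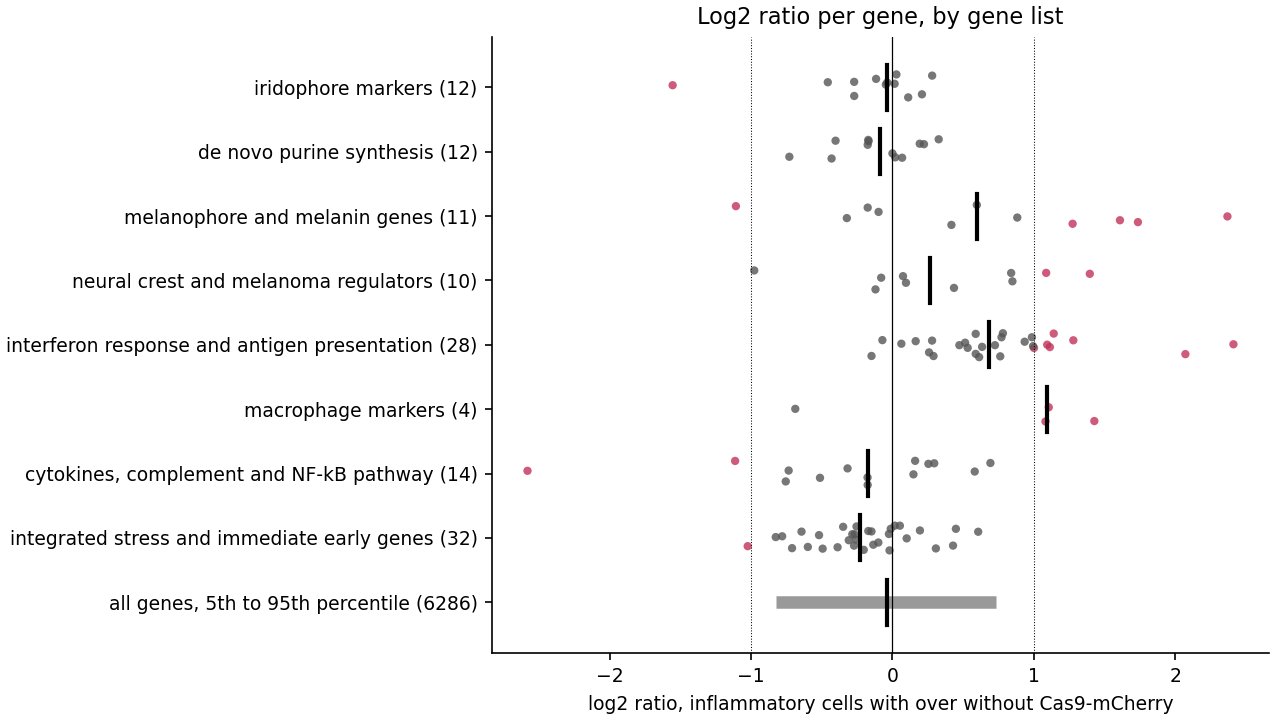
Log2 ratio of each gene (x axis; cells with over cells without Cas9-mCherry, at least 2000 raw UMIs) in 8 gene lists and over all 6286 genes; each point is a gene, red where the ratio is 1 or more or -1 or less, black lines are medians and the grey bar spans the 5th to the 95th percentile. Iridophore markers lie around 0 apart from crip2, while 26 of 28 interferon and antigen presentation genes lie above 0.

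Iridophore genes mostly stayed within 2-fold between cells with and without Cas9-mCherry. All 12 iridophore markers in the table passed the count minimum, 5 above and 7 below 0, with a median log2 ratio of -0.04, the same as over all genes. At 5000 or more raw UMIs 2 were above and 10 below 0, where 47.8% of all genes were above 0, with a median of -0.10. The most abundant was defbl1, a beta-defensin-like gene, with a mean of 49.5 corrected counts per cell with Cas9-mCherry (lowest 0, median 32, highest 447) and 61.0 without (lowest 0, median 29, highest 522), a log2 ratio of -0.27. apoda.1 averaged 44.0 corrected counts per cell with Cas9-mCherry (median 37, highest 178) and 46.1 without (median 36, highest 236). For both genes the medians on the 2 sides differed by at most 3 corrected counts, and the ranges overlapped almost entirely.

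The transcription factor gene alx4a, which acts in iridophore formation, averaged 9.76 corrected counts with Cas9-mCherry and 8.63 without, with a median of 7 in both. pnp4a, a purine nucleoside phosphorylase and a classical iridophore marker, averaged 8.08 with (median 4) and 6.79 without (median 1), and was found in 66.0% and 58.2% of cells. At 5000 or more raw UMIs pnp4a averaged 8.83 and 7.15, against 5.29 in melanocytic cells with Cas9-mCherry, so it was not particular to inflammatory cells. In the same melanocytic cells apoda.1 averaged 0.181, defbl1 0.124 and alx4a 0.228. The scaffold gene akap12a averaged 10.8 and 10.9. The log2 ratios of gpnmb (0.03), tfec (0.11), alx4b (-0.05), ednrba (-0.11) and fhl2a (-0.46) also stayed within 2-fold. Over all members the exception was crip2, which encodes a LIM domain protein. It had 0.170 corrected counts with and 0.518 without Cas9-mCherry, a log2 ratio of -1.55. It was found in 12.6% (7.86 to 18.8%) and 29.0% (24.5 to 33.8%) of cells. crip2 was lower in each tertile of raw depth, with log2 ratios of -1.69, -2.12 and -1.04 in the shallowest, middle and deepest. At 5000 or more raw UMIs it averaged 0.185 with and 0.558 without Cas9-mCherry in inflammatory cells. Stressed (0.833 and 1.01), proliferative (1.62 and 2.19) and invasive cells (1.61 and 2.14) had more on both sides. Melanocytic cells with Cas9-mCherry had 0.526. The log2 ratios in stressed, proliferative and invasive cells were -0.28, -0.42 and -0.43. Neither crip2 nor its lower level with Cas9-mCherry was thus particular to inflammatory cells.

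De novo purine synthesis, which supplies the crystals of iridophores, did not separate the sides either. Of 12 measured genes 6 were above and 6 below 0, none past 2-fold, with a median of -0.08. Over all genes 45.7% were above 0, 2.32% were 2-fold higher and 3.21% 2-fold lower. paics, which carries out 2 consecutive steps of the pathway and was the most abundant of them, averaged 4.18 corrected counts with and 4.82 without Cas9-mCherry, with a median of 2 in both. Among those with at least 200 corrected counts, gmps, the GMP synthetase gene, had the highest log2 ratio, 0.33 (means of 1.84 and 1.497). adsl, which encodes adenylosuccinate lyase, had the lowest, -0.43 (1.09 and 1.51). paics was named after its values were seen.

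Other transcripts of the mitfa promoter, and some melanoma genes, were higher where Cas9-mCherry was present. The human BRAF transgene (hsBRAF, also driven by the mitfa promoter) averaged 0.239 corrected counts per cell with Cas9-mCherry (exact Poisson 95% interval 0.169 to 0.328) and 0.0436 without (0.0254 to 0.0698), a log2 ratio of 2.46. It was found in 17.0% of cells with (11.5 to 23.7%) and 3.85% without (2.17 to 6.26%), against 1.196% of TME cells of at least 5000 raw UMIs. mitfa itself averaged 1.302 with (lowest 0, median 1, highest 17) and 0.436 without (lowest 0, median 0, highest 18), a log2 ratio of 1.61. mitfa was found in 53.5% (45.4 to 61.4%) and 17.9% (14.3 to 22.1%), against 7.92% of the same TME cells. For both transcripts the intervals of the 2 sides did not overlap, but they cover counting error only, over cells that are not replicates. The cells without Cas9-mCherry lay above the TME in mitfa. The table cannot separate transcripts of the mutant mitfa locus from those of the minigene.

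The depth under which no cell had 0 differed between both transcripts. Every cell under 2798 raw UMIs was given at least 1 mitfa count, while hsBRAF kept 0 in cells down to the shallowest of the table, 341 raw UMIs. At 5000 or more raw UMIs mitfa averaged 1.35 with and 0.367 without Cas9-mCherry and hsBRAF 0.242 and 0.0424. With every cell thinned to 7113 corrected counts, mitfa was found in 46.7% and 16.6% of cells and hsBRAF in 16.8% and 3.38%.

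Melanophore and melanin genes followed in part. Of 11 measured, mitfa among them, 7 were above 0, 4 of them 2-fold higher, and 4 below 0, 1 of them 2-fold lower, with a median of 0.60. Over all genes 45.7% were above 0, 2.32% were 2-fold higher and 3.21% were 2-fold lower. pmela, which encodes the fibril protein of the melanosome, averaged 1.38 corrected counts with and 0.272 without Cas9-mCherry, a log2 ratio of 2.37. That sum was uneven, since 1 cell held 41 counts, 14.4% of all pmela counts in cells of at least 5000 raw UMIs, and pmela was found in 39.6% of cells with, 15.1% without and 14.6% of TME cells. tyrp1b, a melanin synthesis gene, had a log2 ratio of 1.74 with 10.1% and 8.46% of cells above 0, and its highest cell held 18.5% of its counts at 5000 or more raw UMIs. Other genes of melanosomes and melanophores mostly stayed closer. mlpha (melanophilin) had 0.88, trpm1b (a cation channel of melanophores) 0.42, rab32a -0.10, gpr143 -0.17 and mlphb -0.32 as log2 ratios. Of these, rab32a and mlphb were lower in melanocytic than in inflammatory cells. At 5000 or more raw UMIs rab32a averaged 2.09 with and 2.29 without Cas9-mCherry, against 0.372 in melanocytic cells with it. mlphb averaged 0.363 and 0.618, against 0.0025. dct, another melanin synthesis gene, had -1.11, and it and tyrp1b were named after their values were seen.

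Of 10 neural crest and melanoma regulators 7 were above and 3 below 0, with a median of 0.27, where 45.7% of all genes were above 0. crestin, a zebrafish gene of the neural crest that melanomas re-express, averaged 10.2 corrected counts with Cas9-mCherry (median 7, highest 52) and 5.82 without (median 4, highest 30), and was found in 98.1% and 85.6% of cells, a log2 ratio of 0.84. mia, which encodes a small protein secreted by melanomas, averaged 3.45 with (3.17 to 3.75) and 1.34 without (1.23 to 1.46), found in 72.3% and 40.3% of cells. tfap2e, an AP-2 transcription factor of melanophores, averaged 1.15 and 0.554 (log2 ratio 1.09). sox10, named like crestin after its values were seen, was level, at 3.33 and 3.19 (log2 ratio 0.10), as were pax3a (-0.12) and foxd3 (-0.08). Cells under 3491 raw UMIs all had at least 1 mia count and those under 3628 at least 1 crestin count. At 5000 or more raw UMIs the log2 ratios were 1.43 for mia, 0.98 for crestin and 1.32 for tfap2e. In the middle tertile of raw depth pmela (0.20), mia (0.19) and tfap2e (0.04) were close to 0, while mitfa was at 2.30.

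The size of these differences can be set beside the melanocytic state, in cells of at least 5000 raw UMIs. The difference between the sides was 18.98% of the melanocytic mean for mitfa and 16.4% for hsBRAF. It was larger for crestin, at 63.8%, where inflammatory cells with Cas9-mCherry (11.7) already lay above melanocytic cells with it (8.92). It was 15.6% for tfap2e, 14.99% for mlpha, 10.6% for trpm1b, 6.59% for mia and 2.81% for pmela. It was 1.33% for sox10 and 1.21% for tyrp1b, and negative for dct, gpr143, rab32a, mlphb, pax3a and foxd3. Melanocytic cells averaged 42.8 corrected counts of pmela and 33.4 of mia.

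Several other genes were higher with Cas9-mCherry. mdkb, qdpra, tmsb2, ppdpfa and si:ch211-195b13.1 were picked among genes with 1 sign in each tertile of raw depth. Their sign in the tertiles is therefore no result. Of 2015 genes with at least 200 corrected counts, 752 had 1 sign in each tertile. mdkb, which encodes the secreted heparin-binding growth factor midkine, averaged 2.52 (2.28 to 2.77) and 0.877 (0.786 to 0.975), and was found in 54.1% and 29.5% of cells. qdpra, which encodes the dihydropteridine reductase that regenerates tetrahydrobiopterin, averaged 1.101 and 0.336. The thymosin beta gene tmsb2, which encodes an actin-binding peptide, averaged 0.855 and 0.272, and ppdpfa and si:ch211-195b13.1 had log2 ratios of 1.29 and 1.24. phlda1, a gene that MAPK signaling turns on, averaged 1.35 and 0.677 with a log2 ratio of 1.02. Between 5000 and 20000 raw UMIs the log2 ratio of tmsb2 was 0.80, against 1.68 over all members. In that range si:ch211-195b13.1 (0.99) and phlda1 (0.93) were also under 2-fold, while mdkb (1.22), qdpra (1.19) and ppdpfa (1.41) were past it. Of the 15 measured genes of MAPK output and feedback 6 were above 0, where 45.7% of all genes were.

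Levels by Cas9-mCherry value, in cells of at least 5000 raw UMIs, were ordered for some genes and not for others. The 330 cells at 0, 49 at 1, 29 at 2 and 46 at 3 or more averaged 0.0424, 0.163, 0.241 and 0.326 corrected counts of hsBRAF. mdkb averaged 0.952, 2.18, 2.55 and 4.04 in the same order, mia 1.32, 2.49, 3.10 and 4.87, and qdpra 0.358, 0.796, 1.62 and 1.72. mdkb and qdpra were picked for their high ratios over all genes, and mia for its high ratio within its list. Their step from the cells at 0 to the other classes is therefore no result. mitfa had no such order, at 0.367, 1.37, 0.897 and 1.61. defbl1 was at 63.4, 66.6, 39.3 and 43.8, so that the cells at 1 resembled those at 0. The median raw depth of the classes also increased, at 9828, 10247, 14061 and 17826 UMIs, and its part in these orders was not tested.

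**Figure D4:**
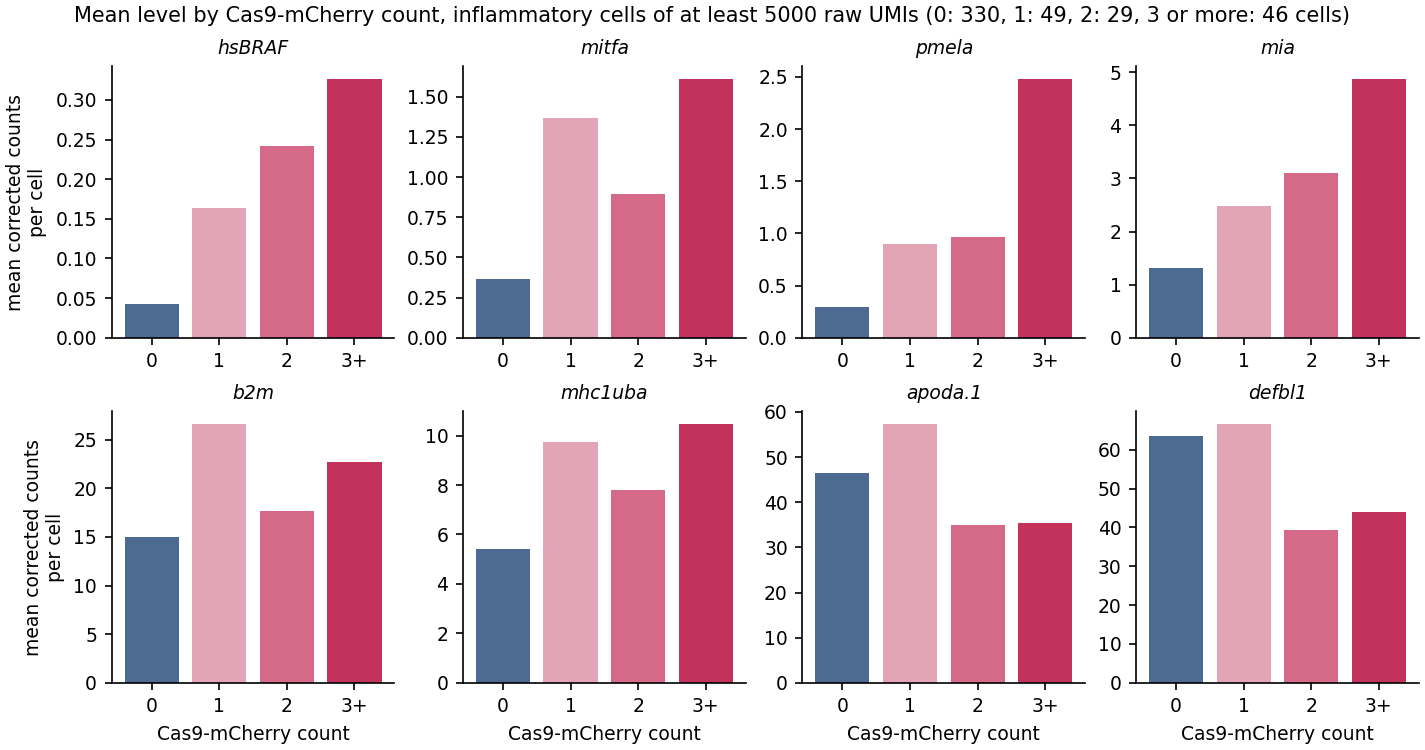
Mean corrected counts per cell (y axis, from 0, scale differing by panel) of 8 genes in inflammatory cells of at least 5000 raw UMIs, by corrected count of Cas9-mCherry (x axis: 330 cells at 0, 49 at 1, 29 at 2, 46 at 3 or more); bars are means with no error bars. hsBRAF and mia increase from class to class, while defbl1 is lower at 2 and above than at 0 and 1.

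Interferon response and antigen presentation genes were higher in cells with Cas9-mCherry. Of 28 measured genes 26 had a log2 ratio above 0, where 45.7% of all genes did, with a median of 0.68. Of the 28, 7 were 2-fold higher and none 2-fold lower, where 2.32% of all genes were 2-fold higher and 3.21% 2-fold lower. At 5000 or more raw UMIs all 26 measured genes were above 0, with a median of 0.78, where 47.8% of all genes were.

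b2m and mhc1uba, of class I presentation, were higher in cells with Cas9-mCherry, while other genes of that pathway differed less evenly. b2m, the beta-2-microglobulin gene, averaged 22.5 corrected counts with Cas9-mCherry (21.7 to 23.2, median 17, highest 124) and 15.0 without (14.6 to 15.4, median 9, highest 511), a log2 ratio of 0.61. mhc1uba, a class I heavy chain gene, averaged 8.98 with (median 5) and 5.34 without (median 3), a log2 ratio of 0.78. Both ratios were positive in every tertile of raw depth, 0.63, 0.67 and 0.64 for b2m and 0.74, 0.64 and 0.86 for mhc1uba. A second heavy chain gene, mhc1zba, differed less, at 4.74 and 4.32 (log2 ratio 0.17). The proteasome activator gene psme1 averaged 1.19 and 0.721, and psmb10, a subunit of the immunoproteasome, averaged 0.566 and 0.292, found in 39.0% and 23.1% of cells, with a log2 ratio of -0.65 in the shallowest tertile. These 5 genes were named after their values were seen. Class I heavy chain genes of zebrafish are close copies of one another, and how reads that fit several were counted is not given in the sources used here.

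The ratios of some interferon-induced antiviral genes differed between depth tertiles or rested on few cells. isg15, which encodes a ubiquitin-like protein, averaged 10.3 with and 7.41 without Cas9-mCherry, with a median of 1 and 0, and its log2 ratio was -1.16 in the shallowest tertile, 1.80 in the middle and 0.19 in the deepest. mxc, an antiviral GTPase gene, averaged 0.943 and 0.482, with a log2 ratio of -0.66 in the shallowest tertile. rsad2 (viperin) had a log2 ratio of 2.07, but 1 cell with Cas9-mCherry held 80 of its 160 counts in cells of at least 5000 raw UMIs. mxb, of the same family as mxc, was found in 13.8% and 3.85% of cells with a log2 ratio of 2.41. stat1a (0.06) and trim25 (-0.07) were near 0. isg15, rsad2 and mxb were also named after their values were seen.

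Invariant chain genes of class II presentation were higher as well. Of 13 macrophage markers 4 passed the minimum, cd74a, cd74b and grn1 above 0 and lygl1 below. cd74b, a class II invariant chain gene, averaged 2.85 with (highest 44) and 1.08 without (highest 36), a log2 ratio of 1.43, and was found in 27.0% (20.3 to 34.7%) and 14.1% (10.8 to 17.96%) of cells. cd74a averaged 2.84 and 1.37 (log2 ratio 1.08), and si:busm1-266f07.2, a gene with no symbol of its own, averaged 1.97 and 0.731 (log2 ratio 1.46), against 22.8 in TME cells. irf8, a transcription factor of the myeloid lineage that interferon also induces, averaged 0.686 and 0.318, in 9.43% and 5.90% of cells, and 5 cells held 48.7% of its counts at 5000 or more raw UMIs. In TME cells of at least 5000 raw UMIs cd74a averaged 66.3, cd74b 23.1 and ptprc 1.23. si:busm1-266f07.2 was picked by the size of its ratio.

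The summed level of all 13 macrophage markers averaged 6.46 corrected counts with and 3.39 without Cas9-mCherry at 5000 or more raw UMIs, against 200.4 in TME cells, and that of the 12 pan-leukocyte markers 0.444 with and 0.624 without, against 33.4. Of the leukocyte markers only coro1a, a gene for an actin-binding protein, passed the minimum, and it was lower, at 0.195 and 0.354 (log2 ratio -0.81). The defining macrophage marker mpeg1.1 was at or near 0 on both sides, and the part of TME transcripts in the cd74 levels was not tested beyond these values. The cells at 1, 2 and 3 or more counts of Cas9-mCherry averaged 4.37, 0.552 and 3.33 of cd74b at that depth, so these means had no order with the transgene. The shares of cells with cd74b differed less, at 26.5%, 24.1% and 32.6%, against 15.5% of cells at 0.

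Cytokine, complement and NF-kB genes did not follow the antigen presentation genes. Of 14 measured, 6 were above and 8 below 0, none at least 2-fold higher, and cxcl8a (-2.58) and c7b (-1.11) at least 2-fold lower, with a median of -0.17. Over all genes 45.7% were above 0, 2.32% were at least 2-fold higher and 3.21% at least 2-fold lower. cxcl8a encodes a neutrophil-attracting chemokine and c7b a complement component, both named after their values were seen. The chemokine gene cxcl18b averaged 6.16 with and 5.28 without Cas9-mCherry (log2 ratio 0.26), in 54.8% and 56.7% of cells of at least 5000 raw UMIs, and the chemokine gene ccl19a.1 averaged 3.04 and 2.54 (0.30). cebpb, an acute-phase transcription factor gene, was at 0.340 and 0.590 (-0.75), and nfkbiaa, which encodes an inhibitor of NF-kB, at 0.434 and 0.636 (-0.51). The summed level of the list was 16.7 with and 16.5 without at 5000 or more raw UMIs.

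Genes much lower in cells with Cas9-mCherry included a growth factor gene and the keratin genes krt18a.1 and krt4. tgfa, which encodes a ligand of the EGF receptor, averaged 0.119 with (0.0719 to 0.187) and 0.662 without (0.583 to 0.747), a log2 ratio of -2.40, and was found in 6.29% (3.06 to 11.3%) and 27.2% (22.8 to 31.9%) of cells, 0.299% of TME cells. Thinned to 7113 corrected counts per cell the shares were 3.65% and 26.0%. krt18a.1, a simple-epithelium keratin gene named after its values were seen, averaged 3.30 with (median 1, highest 32) and 11.14 without (median 3, highest 153), a log2 ratio of -1.72, and was found in 59.7% and 73.6% of cells. Keratin gene krt4 averaged 0.358 and 2.09 (log2 ratio -2.50), against 4.43 in TME cells. At 5000 or more raw UMIs invasive cells averaged 6.70 with and 11.7 without Cas9-mCherry for krt4, and 16.4 and 35.5 for krt18a.1. In stressed, proliferative and invasive cells the log2 ratios were -0.19, -2.26 and -0.83 for krt4. Those of krt18a.1 were -0.42, -1.86 and -1.14. Lower keratin levels with Cas9-mCherry were thus not particular to inflammatory cells. Of the 3 measured keratinocyte markers 1 was above and 2 below 0, where 45.7% of all genes were above 0. Their median was -0.15, and -0.73 at 5000 or more raw UMIs. The marker above 0 was icn (log2 ratio 0.16), which averaged 100.8 with and 94.9 without Cas9-mCherry at that depth.

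apodb, an apolipoprotein D gene, aldh1a3, a retinoic acid synthesis gene, aqp1a.1, a water channel gene, and cyp2k19, a cytochrome P450 gene, had log2 ratios of -4.37, -4.81, -2.78 and -2.30. They were picked by the size of their ratios, as tgfa was, and rested on few cells. At 5000 or more raw UMIs apodb was found in 25 cells, and 5 cells held 79.4% of its counts. Of those 25 cells 22 were without Cas9-mCherry, as were 330 of all 454 inflammatory cells of that depth. Cells with one often had another, since 17 of the 25 apodb cells had tgfa, against 21.8% of all these cells, and 43 of the 56 cyp2k19 cells had tgfa. The ratio of egr4, an immediate early gene named after its values were seen, was -8.15, but 1 cell held 1051 of 1071 counts, and it is a value of that cell.

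Stress genes leaned lower. Of 32 measured integrated stress and immediate early genes 8 were above and 24 below 0, none 2-fold higher, with a median of -0.23. Over all genes 45.7% were above 0 and 2.32% were 2-fold higher. atf3, a stress-induced transcription factor gene, averaged 4.55 with (median 1) and 9.47 without Cas9-mCherry (median 3), a log2 ratio of -1.02, and fosl2, which encodes an AP-1 subunit, 0.616 and 1.12 (-0.82), while gadd45ga, a growth arrest gene, averaged 3.21 and 2.15 (0.61). phlda2, a pleckstrin-homology domain gene of the MAPK list that was abundant on both sides, averaged 13.5 and 20.7 (-0.58). pmp22b, a myelin protein gene, was lower at 2.16 and 4.56 (log2 ratio -1.04), and its TME mean was 10.2.

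Medians of the other pathways lay within 2-fold. Of 66 nuclear genes of oxidative phosphorylation 51 were above 0 and 3 were 2-fold higher, around a median of 0.17. Over all genes 45.7% were above 0 and 2.32% were 2-fold higher, so this list leaned higher. At 5000 or more raw UMIs 51 of 65 were above 0, where 47.8% of all genes were. With the same split, 47 of 65 were above 0 in stressed cells (45.4% of all genes) and 52 of 65 in proliferative cells (50.8%). In invasive cells 31 of 63 were (51.6%). The lean was thus not particular to inflammatory cells. Transcripts of the mitochondrial genome lay around a median of 0.08 over 13 genes, and -0.12 at 5000 or more raw UMIs. S phase genes had a median of -0.44 with 1 of 11 above 0, lipid droplet and fatty acid genes -0.11 with 5 of 13 (0.06 with 7 of 12 at 5000 or more raw UMIs), and heat shock genes -0.05 with 4 of 11.

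The same split was made in 3 other melanoma states of at least 5000 raw UMIs, namely stressed (652 with and 90 without Cas9-mCherry), proliferative (238 and 64) and invasive cells (104 and 142), while melanocytic cells had 4 without and were left out. Melanophore genes had medians of 0.67 in inflammatory, 0.52 in stressed, 1.45 in proliferative and 0.70 in invasive cells. Interferon and antigen presentation genes had a median of 0.78 with 26 of 26 above 0 in inflammatory cells, -0.34 with 3 of 20 in stressed, 0.20 with 15 of 17 in proliferative and -0.19 with 5 of 17 in invasive cells. Within stressed cells b2m averaged 8.21 with and 7.87 without Cas9-mCherry, and within invasive cells 10.2 and 8.70. cd74a had log2 ratios of 0.96 in inflammatory, -0.46 in stressed, 2.11 in proliferative and 2.78 in invasive cells. cd74b had 1.36, -0.62, 1.01 and 1.34 in the same order. The higher level of both genes with Cas9-mCherry was thus not particular to inflammatory cells. Over all genes the medians were -0.02, -0.04, 0.01 and 0.02 in inflammatory, stressed, proliferative and invasive cells. The shares of all genes above 0 were 47.8%, 45.4%, 50.8% and 51.6% in the same order. Stress genes had medians of -0.28, -0.19, -0.38 and -0.18. The differences between states were not tested.

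**Figure D5:**
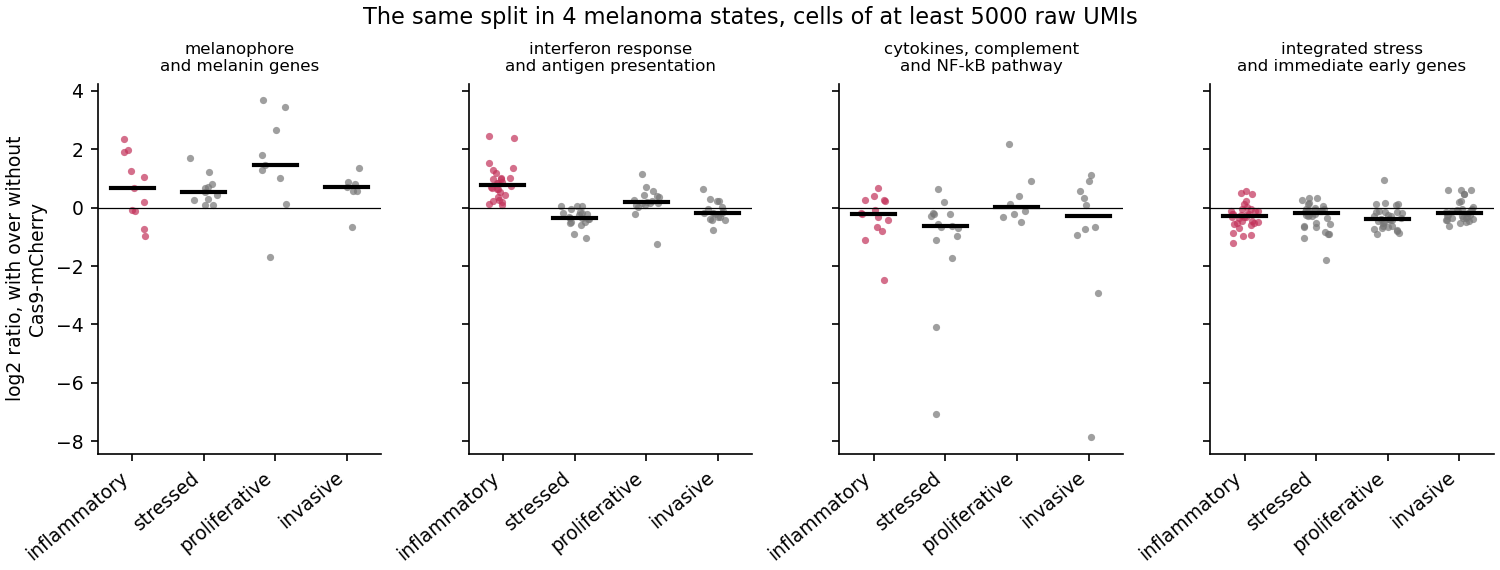
Log2 ratio of each measured gene of 4 lists (y axis; cells with over cells without Cas9-mCherry, at least 5000 raw UMIs) in inflammatory, stressed, proliferative and invasive cells (x axis); each point is a gene and black lines are medians. The medians of the interferon and antigen presentation list are 0.78, -0.34, 0.20 and -0.19, and those of the melanophore list are above 0 in all 4 states.

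The bulk libraries of tdTomato+ cells held transcripts of all these groups, as normalized counts of whole sorted populations in which cell states cannot be told apart. defbl1 had 7464, 9048 and 7046 in the sgDGAT1a libraries and 2351, 3094 and 2509 in the sgNT libraries, and mitfa had 8329, 7901 and 7313 in sgDGAT1a and 11505, 12139 and 20742 in sgNT. b2m had 41527, 44696 and 37869 in sgDGAT1a and 93876, 102353 and 73478 in sgNT. The sorted cells also held leukocyte transcripts, with 2046, 1929 and 1327 of ptprc in sgDGAT1a and 2774, 2241 and 2616 in sgNT. In bulk samples fewer cells of a type and less RNA per cell cannot be told apart, and no comparison of the guides was made here.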

How the data were processed

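Single-cell reads were aligned by the authors with Cell Ranger 6.0.2, and per the labels R 4.0.5 and Seurat 4.0.2 were used with build GRCz11. The deposited single-cell table holds counts as the score SCTransform gives, whole numbers corrected for depth and not raw UMI counts (20141 genes, 3968 cells), so no count model was fitted. The authors' deposited annotation gives each cell's state, its raw UMI and gene counts, and the percent of mitochondrial and of ribosomal UMIs. The authors' deposited bulk table gives normalized counts (signal; Salmon 1.4.0 and DESeq2 1.30.1 per the labels), used for levels only. The files name no tdTomato feature, and it was not analysed here. The gene that the guides target, and the list that holds it, are not reported here. No doublet caller was run.

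Corrected counts were summed per gene and side, 0.5 was added, and sums were divided by the side's total without Cas9-mCherry. Genes with at least 50 corrected counts were kept. The ratio code was tested on simulated data. Python 3 with numpy, scipy and pandas was used. Raw depth was 2074 to 83009 UMIs per cell. Intervals for means are exact Poisson limits on summed corrected counts, taken as if they were counts of molecules. Those for shares are exact Clopper-Pearson limits, and both are at 95%.

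Genes were named by rule: Cas9-mCherry and mitfa, other transgenes, all iridophore and melanophore genes with at least 200 corrected counts, in the other lists the 2 highest and 2 lowest with that many, and over all genes the 10 largest ratios in each direction with 1 sign in each tertile of raw depth. Members, lists and rule were chosen with earlier results of these data known. Alternatives were other depth limits, split, count minimum, pseudocount, scaling, depth weighting and thinning.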

Additional observations from a re-analysis of the deposited data

Results flagged for a closer look

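A transcript named EGFP was listed in the single-cell table with 10 corrected counts over all cells, in 10 cells, of which 2 were inflammatory and 0 were among the 1290 TME cells; it belongs to no comparison above and stood out because a signal appeared in data that the comparisons did not use.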

How the results depend on the processing

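The count of genes 2-fold higher with Cas9-mCherry, 146, became 238 with 2 or more counts against 0, 26 with at least 200 counts per gene and 2660 with at least 1. The count 2-fold lower, 202, became 46 with at least 200 counts per gene, 1517 with at least 1 and 89 with a pseudocount of 5. These settings change the genes tested, the cells compared or the weight of low sums. The median of the macrophage markers, 1.095 over 4 genes, became 0.45 with 2 or more counts against 0 and 0.43 with at least 1 count per gene, where that of the pan-leukocyte markers became -0.010. The share of cells with Cas9-mCherry, 28.96%, became 23.0% at 5000 to 20000 raw UMIs and 16.03% with 2 or more counts. The cause of these moves was not tested. Over all alternatives run, the median of the interferon and antigen presentation list lay between 0.53 and 0.91, that of the melanophore list between 0.38 and 0.91, that of the iridophore list between -0.21 and -0.03, that of purine synthesis between -0.23 and 0.01 and that of cytokines between -0.35 and -0.01. The log2 ratio of median raw depths, 0.11, was 0.58 with 2 or more counts against 0, 0.42 at 3071 or more raw UMIs and -0.05 with no limit on raw UMIs. The limit of 3071 raw UMIs, and for the ratio of depths the ranges from 5000 raw UMIs, were chosen after seeing the data. Of 36 named genes past 2-fold, 36 kept their sign in all 13 settings in which they were measured and 23 stayed past 2-fold. Some of these genes were named for the size and constant sign of their ratios, or after their values were seen. All settings also reuse cells of 1 library, so this count is no independent support. No paired analysis was possible because the result comes from no test. With 1 library, depth and the side of the split cannot be told apart, and a corrected count near 1 in a shallow cell need not stand for a molecule.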
